A study of Homo sapiens with 9 samples.

Results

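The genes described here build and run the DNA replication fork: 54 genes chosen by a list of symbols from the 41041 genes in the expression table. They were grouped by role into origin licensing (9 genes), the CMG helicase (11), origin firing (3), polymerases and primase (10), the sliding clamp and its loader (6), the single-strand binding protein RPA with strand joining (5), fork protection (5), chromatin assembly (2) and the E2F transcription factors (3). Poly(A) RNA was sequenced from SW480, a long-established line of human colorectal cancer cells, cultured at 1% oxygen for 48 h in all 3 groups. The control group had hypoxia and no compound, the SFN group had hypoxia with sulforaphane at 25 µM, and the SFN+5-FU group had hypoxia with sulforaphane and 5-fluorouracil, for which the labels give no dose of either compound. Sulforaphane is an isothiocyanate from cruciferous vegetables, and 5-fluorouracil is a pyrimidine analogue whose metabolites block thymidylate synthase and enter RNA and DNA. Each group holds 3 biological replicates of 1 cell line, and neither cells at normal oxygen nor cells on 5-fluorouracil alone were analysed here, so a difference of the combined group from control cannot be divided between its compounds.

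In the G1 phase of the cell cycle the origin recognition complex (ORC), CDC6 and CDT1 load the MCM ring onto DNA. In S phase the kinase CDC7 with DBF4, and MCM10, help CDC45 and the GINS complex to turn that ring into the active CMG helicase, behind which the polymerases copy both strands on the PCNA clamp. Many of these genes are known targets of E2F transcription factors, which bind near transcription starts and are held back by the retinoblastoma protein until cells commit to S phase.

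Because E2F1 is itself a member and many of the others are textbook targets of its family, the promoters were searched for the core of the E2F site. The motif had 4 versions, of which the first was TTCCCGC, the second was TTGGCGC, the third was TTCGCGC and the fourth was TTGCCGC, and it was sought on either strand in 300 bases around the start of each gene (250 before it and 50 after it, RefSeq, GRCh38.p14), where the different versions may overlap each other. Of the 54 members 47 had a promoter in the table, and POLD3, MCM5, MCM4, RPA3, GINS4, RPA2 and E2F8 did not. A match stood in 33 of those 47 (70.2%), compared with 13.0% of the promoters of 27305 genes. These 27305 genes were not limited to genes expressed in these cells and were not matched to the members for base composition. Of the 54 matches in members 41 (75.9%) began no more than 60 bases before the start or lay after it, compared with 37.2% of the matches in all genes. Such a match is a description of the letters and not a measured binding site. The stretches below show the matches of members whose levels are given further on, written 5′ to 3′ on the gene's strand with the match in capitals. RFC3 (chr13:33818083-33818111, plus strand), DTL (chr1:212035730-212035758, plus strand), E2F1 (chr20:33686387-33686415, minus strand), POLA2 (chr11:65261899-65261927, plus strand), GINS2 (chr16:85688968-85688996, minus strand) and ORC1 (chr1:52404425-52404453, minus strand) rose with SFN. CDT1 (chr16:88803755-88803783, plus strand), POLA1 (chrX:24693787-24693815, plus strand) and POLE (chr12:132687343-132687371, minus strand) did not pass the test with SFN and were added after their values were seen.
RFC3: atttggagctcGCGGGAAaacttgtctct
DTL: gtgacgtcagtTTGGCGCggagtttggcg
E2F1: gcaaaaaggatTTGGCGCgtaaaagtggc
POLA2: tggctcccggtTTCGCGCatgcgtgcact
GINS2: ctctcgccgtgGCGGGAAaacggcggccg
ORC1: cacgccgaTTGGCGCGAAgttttcttttc
CDT1: cgggaaatttgGCGGGAAccgcgcccgcc
POLA1: aacgcgcgtccGCGGGAAggccgggggcg
POLE: tgggtgggagcGCGCCAAatttctcccct
The same core letters thus stood in the promoters of members that rose and of members that did not pass the test. The printed matches began between 7 and 55 bases before the start, except that of POLA1, which began 120 bases before it. Among the 35 members with a promoter that rose with SFN 23 had a match (65.7%), and among the other 12 members 10 had one (83.3%). These 12 include LIG1, which fell in both comparisons and had 3 matches. In ORC1 a pair of matches overlapped, and both are in capitals. CDC45, FEN1, MCM10, ORC4, ORC5, ORC6, POLD1, POLE3, PRIM2 and TIPIN, which rose in both comparisons, had no match in this window. This says only that these letters were absent there. The longer stretch below is the E2F1 promoter from 250 to 20 bases before its start (chr20:33686405-33686635, minus strand), 231 bases that hold 3 CCAAT boxes (CCAAT, either strand), 5 GC boxes (GGGCGG, either strand) and 1 further E2F match, in capitals. CCAAT boxes stood in 53.2% of the member promoters and 35.7% of all promoters, and GC boxes in 72.3% and 44.5%.
E2F1 promoter: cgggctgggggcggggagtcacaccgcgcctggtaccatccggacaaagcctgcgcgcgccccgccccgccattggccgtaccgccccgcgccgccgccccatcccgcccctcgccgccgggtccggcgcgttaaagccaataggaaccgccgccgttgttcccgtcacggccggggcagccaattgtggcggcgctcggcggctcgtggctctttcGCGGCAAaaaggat

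Expression is given as FPKM, the fragments mapped to a gene scaled by its transcript length and by the library's total, so levels can be compared between genes. All 54 members had a mean of at least 1 FPKM and were tested, among 12662 such genes, from PCNA at a mean of 258 FPKM over the 9 libraries down to E2F2 at 1.68. Fold changes below are on the log2(FPKM + 1) scale, which understates the change of weakly expressed genes, with the standard error (SE) from limma, and a gene is said to rise or fall where its limma p-value adjusted over all 12662 genes was under 0.05. The library labelled SFN replicate 2 resembled the SFN+5-FU libraries. Its Pearson correlation across genes was 0.993 with each of them but 0.963 and 0.968 with SFN replicates 1 and 3, which correlated at 0.990 with each other. It lay nearer to the SFN+5-FU libraries in 42 of the 54 members (77.8%), as in 82.6% of all tested genes, so results of the SFN group are also given without it where that changes a call or moves a called value by over 1.5 times. This library was singled out by its values, so p-values without it depend on that choice. Control replicate 3 was the highest control in 51 of the 54 members (94.4%), compared with 42.2% of all genes. The library total of FPKM ranged from 259200 to 272200, and the number of fragments behind it is unknown.

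The line's identity was checked against markers. EPCAM, an epithelial adhesion protein, ranged from 114 to 144 FPKM over the 9 libraries. The 12 colon epithelial markers summed to between 2755 and 2774 FPKM in control, between 1840 and 2497 with SFN and between 1776 and 1793 with SFN+5-FU. Most of each sum came from the keratins KRT8, KRT18 and KRT19. The intestinal markers CDX1, CEACAM5 and LGR5 stood at no more than 0.4, 0.15 and 0.13 FPKM in any library. The sums thus do not show that all 12 markers were expressed. Markers of fibroblasts and endothelium summed to at most 2.06 FPKM. The 6 leukocyte markers summed to between 4.92 and 5.46 FPKM in control, between 5.48 and 10.7 with SFN and between 7.8 and 11.3 with SFN+5-FU. Of these PTPRC was listed at 0 in every library, while CD68, a lysosomal protein abundant in macrophages, stood at 0.6, 0.61 and 0.48 FPKM in control, 2.05, 5.57 and 4.23 with SFN and 8.96, 7.92 and 5.59 with SFN+5-FU, and rose by 1.59 (adjusted p = 0.000932) and 2.42 (adjusted p = 6.38e-05). CD68 was the 1 of the 3 tested leukocyte markers that rose. The others, CD14 and LYZ, were not called with SFN and fell with SFN+5-FU. CD14 stood at 1.76, 1.63 and 1.98 FPKM in control and 1.16, 0.86 and 1.32 with SFN+5-FU. LYZ stood at 2.32, 2.87 and 2.8 FPKM in control and 1.06, 1.8 and 0.76 with SFN+5-FU. Of the 9 epithelial markers tested 6 fell with SFN and 8 with SFN+5-FU, and none rose. The lower sums of epithelial markers and the higher sums of leukocyte markers, where only CD68 was called higher, moved with the treatment groups. Their part in the results below was not tested.

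The first comparison asks how the replication genes respond to sulforaphane in hypoxic cells. With SFN 42 of the 54 members rose, 1 fell and 11 did not pass the test, where 27.5% of all tested genes rose, 22.5% fell and 50.0% changed in either direction. Without the library labelled SFN replicate 2 there were 43 higher and 3 lower members, against 30.0% and 26.9% of all genes (56.9% in either direction), since MCM6 was added to the higher members and RPA1 and TIMELESS to the lower. The median log2 fold change of the members was 0.48, and that of all genes was 0.05. In 39 members all SFN libraries lay above all control libraries and in 1 they lay below, where 31.6% and 25.8% of all genes did so. In bulk RNA a larger share of cells in S phase and more transcript in each cell cannot be told apart. The second comparison sets SFN+5-FU against the same control libraries, so its results are not independent of the first. There 40 members rose and 1 fell, where 38.3% of all genes rose, 28.0% fell and 66.2% changed in either direction, and the median log2 fold change was 0.63 for the members and 0.10 for all genes. Without SFN replicate 2, which enters only the shared estimate of the spread here, 42 rose and 1 fell, against 43.4% and 31.3% of all genes (74.7% in either direction). In 44 members the SFN+5-FU libraries lay above all controls and in 1 below, where 45.5% and 33.2% of all genes did so.

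The single libraries show how evenly this shift was shared. Relative to the control mean, the median member stood at -0.09, -0.08 and 0.16 in control replicates 1 to 3 on the log2 scale. It stood at 0.36, 0.58 and 0.54 in the SFN libraries and at 0.64, 0.65 and 0.58 in the SFN+5-FU libraries. Every treated library was thus above every control, and SFN replicate 1 was the nearest to control. The members' share of all FPKM was 0.346, 0.349 and 0.410% in control, 0.465, 0.590 and 0.528% with SFN and 0.602, 0.621 and 0.602% with SFN+5-FU.

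**Figure D1:**
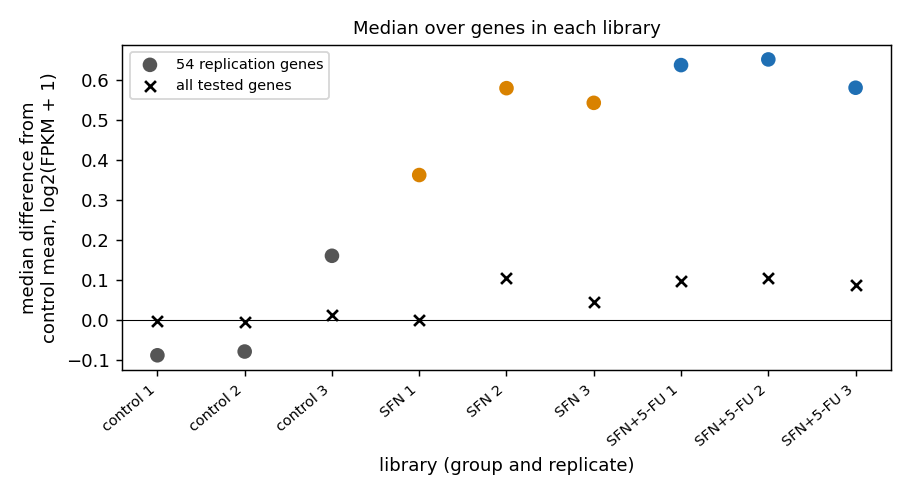
Median difference from the control mean, in log2(FPKM + 1), over the 54 replication genes (circles, coloured by group) and over all 12662 tested genes (crosses), with the 9 libraries along the horizontal axis. The members' medians run from -0.09 to 0.16 in control and from 0.36 to 0.65 in the treated libraries, while the medians of all genes stay near 0.

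**Figure D2:**
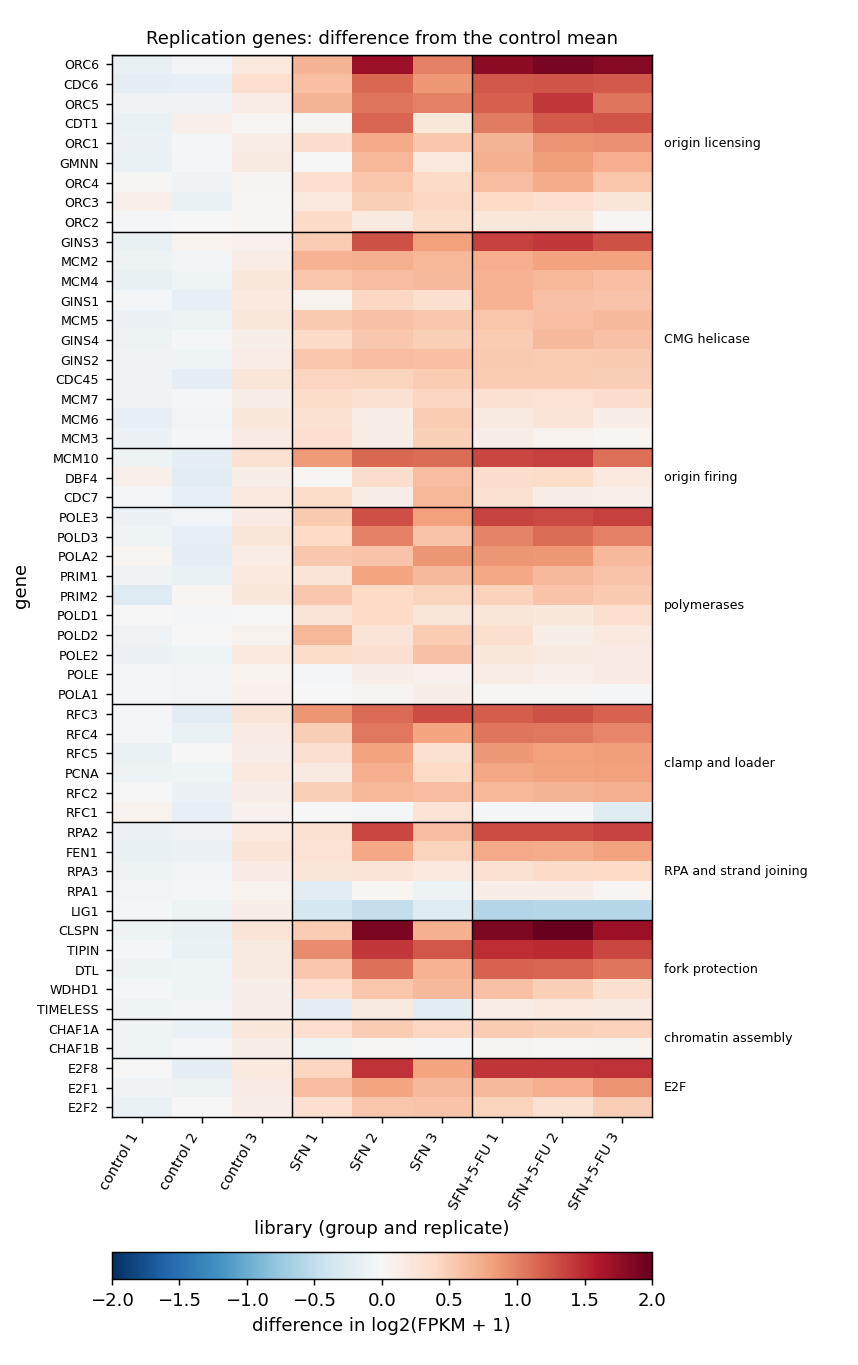
Difference of each of the 54 replication genes (rows, ordered by role) from its control mean in log2(FPKM + 1), in each of the 9 libraries (columns). Red is above and blue is below the control mean, and the column of the library labelled SFN replicate 2 is darker than those of the other SFN libraries for genes such as ORC6, CDT1, RPA2 and CLSPN, while LIG1 is blue in all treated libraries.

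Of the 9 licensing genes 7 rose with SFN and 8 with SFN+5-FU, and none fell, with median log2 fold changes of 0.48 and 0.83, beside 0.48 and 0.63 for all members. ORC6, the smallest subunit of the origin recognition complex, stood at 4.2, 4.59 and 5.63 FPKM in control replicates 1 to 3, at 8.24, 17.97 and 10.6 with SFN and at 18.98, 20.5 and 19.5 with SFN+5-FU. All treated libraries lay above all controls, but SFN replicates 1 and 3 lay between the controls and the combined group, and SFN replicate 2 lay just under the combined group. The log2 fold change of ORC6 was 1.13 (0.22 SE, adjusted p = 0.00268) with SFN and 1.84 (0.22 SE, adjusted p = 0.000126) with SFN+5-FU. ORC5, an ATP-binding subunit of the complex, was at 6.68, 6.7 and 7.99 FPKM in control, 11.98, 15.98 and 15.3 with SFN and 17.6, 20.6 and 15.9 with SFN+5-FU. It rose by 0.92 with SFN (adjusted p = 0.000425) and by 1.23 with SFN+5-FU (adjusted p = 5.78e-05), with no overlap with control in either case. ORC1, the subunit that in human cells is degraded and remade in each cycle, was at 5.47, 5.8 and 6.74 FPKM in control, 7.95, 10.8 and 9.2 with SFN and 10.2, 12.02 and 12.2 with SFN+5-FU. ORC1 rose by 0.55 (adjusted p = 0.00422) and 0.83 (adjusted p = 0.000296). ORC2, ORC3 and ORC4 made smaller changes, between 0.31 and 0.43 with SFN, all of them called, although the calls of ORC2 and ORC3 were lost after the correction for GC content and length (adjusted p = 0.0663 and 0.102), and that of ORC2 also without control replicate 1 (adjusted p = 0.0511).

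CDC6 passed the test in both comparisons, and CDT1 and GMNN did so in the second. CDC6, the ATPase that joins ORC to load the MCM ring, was at 12.7, 12.8 and 18.5 FPKM in control, 22.5, 33.2 and 27.2 with SFN and 35.6, 36.2 and 35.4 with SFN+5-FU. CDC6 rose by 0.87 (adjusted p = 0.00189) and by 1.25 (adjusted p = 0.000167), and its 3 SFN+5-FU libraries lay above all SFN libraries. CDT1, the partner of CDC6 in loading, was at 14.1, 16.8 and 15.8 FPKM in control and at 16.1, 35.8 and 18.2 with SFN, where replicate 1 was inside the control range and replicate 2 was in that of the combined group. Its log2 fold change with SFN was 0.48 (0.24 SE, adjusted p = 0.127) and 0.14 without SFN replicate 2 (adjusted p = 0.234), and CDT1 was not called. With SFN+5-FU it stood at 32.8, 37.4 and 38.3 FPKM, above all controls, and rose by 1.17 (adjusted p = 0.00228). GMNN encodes geminin, which binds CDT1 and blocks further loading once S phase has begun. It stood at 10.1, 10.9 and 12.7 FPKM in control, 11.3, 18.3 and 12.9 with SFN and 18.96, 20.6 and 19.2 with SFN+5-FU. GMNN was not called with SFN (log2 fold change 0.29, adjusted p = 0.141, or 0.10 and 0.382 without SFN replicate 2), where SFN replicate 1 overlapped the controls, and it rose by 0.76 with SFN+5-FU (adjusted p = 0.00206). For both CDT1 and its inhibitor GMNN, SFN replicates 1 and 3 lay near the controls and SFN replicate 2 near the combined group. Without SFN replicate 1 both were called with SFN (adjusted p = 0.0352 for CDT1 and 0.0336 for GMNN). Library weights also made both calls (adjusted p = 0.0381 for CDT1 and 0.0158 for GMNN). The correction for GC content and length made that of CDT1 (adjusted p = 0.0399).

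**Figure D3:**
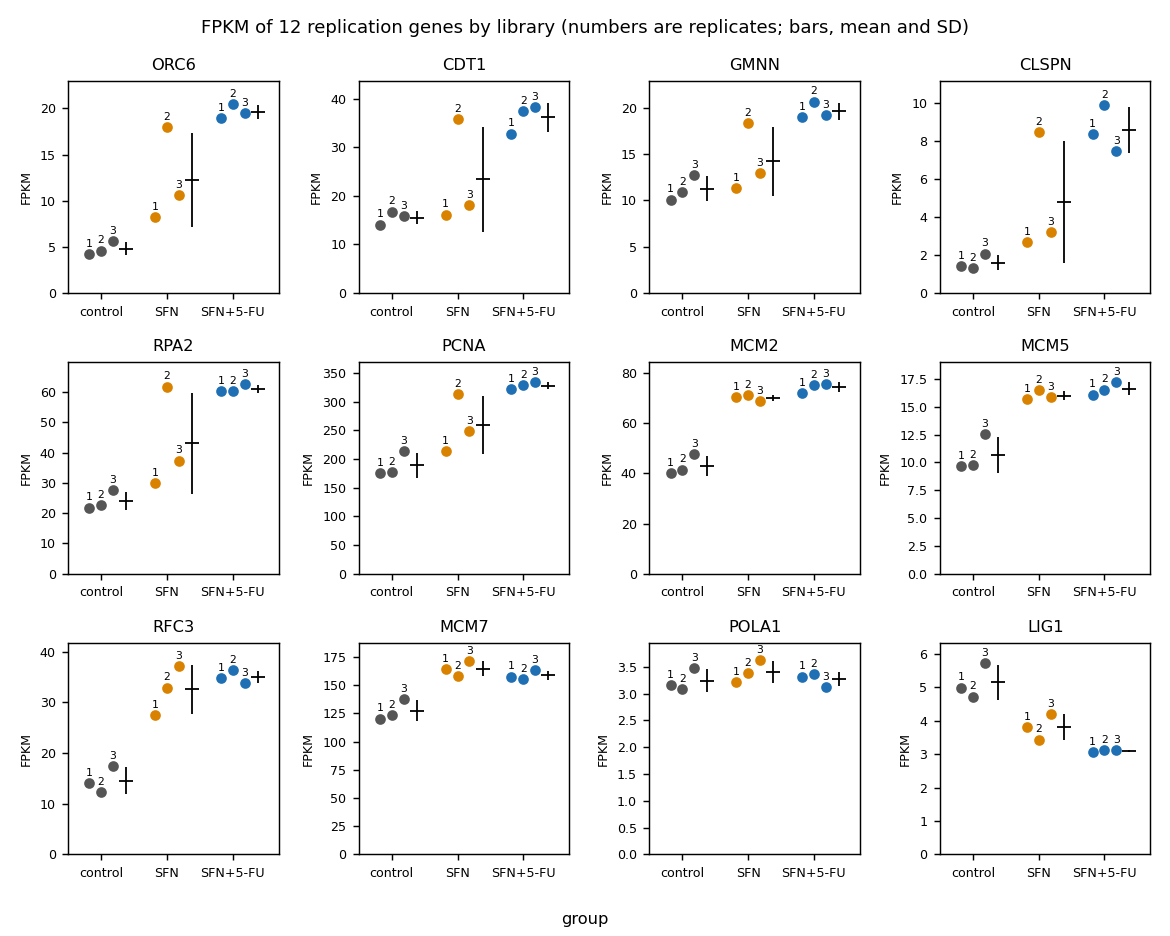
FPKM of 12 replication genes (1 panel each, vertical axes starting at 0) in the control, SFN and SFN+5-FU libraries. Points are libraries with their replicate number, and the bar beside each group is its mean with SD (n = 3). In the panels of ORC6, CDT1, GMNN, CLSPN, RPA2 and PCNA SFN replicates 1 and 3 lie nearer to control than SFN replicate 2 does, while in those of MCM2 and MCM5 all SFN libraries lie close to the combined group.

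Most genes of the helicase rose. Of its 11 genes 9 rose with SFN and 9 with SFN+5-FU, and none fell, with medians of 0.46 and 0.58. MCM2, a subunit of the ring that also binds histones, was at 40.01, 41.5 and 47.5 FPKM in control, 70.3, 71.1 and 68.8 with SFN and 71.97, 75.3 and 75.7 with SFN+5-FU. Its libraries hardly differed within a treated group, and MCM2 rose by 0.69 (0.07 SE, adjusted p = 9.26e-05) and 0.78 (0.07 SE, adjusted p = 3.02e-05). MCM5, which closes the gate of the ring together with MCM2, was at 9.69, 9.77 and 12.5 FPKM in control, 15.7, 16.5 and 15.9 with SFN and 16.1, 16.5 and 17.2 with SFN+5-FU, and rose by 0.55 (adjusted p = 0.00118) and 0.60 (adjusted p = 0.000453). MCM7, the most abundant helicase transcript, was at 120.3, 124 and 138 FPKM in control, 164, 158 and 171 with SFN and 157, 155 and 163 with SFN+5-FU. The treated libraries of MCM7 overlapped each other and lay above all controls, with log2 fold changes of 0.37 (adjusted p = 0.00168) and 0.32 (adjusted p = 0.00235), the second of which was lost with quantile normalization (adjusted p = 0.0555). MCM4 rose by 0.61 and 0.65. MCM3 and MCM6, the remaining ring subunits, had smaller changes with SFN+5-FU. MCM3 rose with SFN by 0.30 (adjusted p = 0.0325), a call lost under 8 of 19 alternatives, and with SFN+5-FU its log2 fold change was 0.08 (adjusted p = 0.526). MCM6 was called in neither comparison (log2 fold change 0.31, adjusted p = 0.0505 with SFN, and 0.20, adjusted p = 0.166, with SFN+5-FU), but it was called higher with SFN under 5 of 19 alternatives and with SFN+5-FU under 2. Without SFN replicate 2 MCM6 rose with SFN by 0.41 (adjusted p = 0.0103), without control replicate 3 by 0.42 (adjusted p = 0.0179) and with a filter of mean FPKM at least 5 by 0.31 (adjusted p = 0.0463). With SFN+5-FU the log2 fold changes of the 6 ring subunits thus ran from 0.08 for MCM3 to 0.78 for MCM2.

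CDC45 and the GINS complex complete the helicase. CDC45 was at 10.8, 9.92 and 13.6 FPKM in control, 15.6, 15.8 and 16.4 with SFN and 16.5, 16.6 and 16.3 with SFN+5-FU, and rose by 0.46 (adjusted p = 0.00422) and 0.50 (adjusted p = 0.00169). GINS3, a GINS subunit, was at 1.55, 1.99 and 2 FPKM in control, 3.03, 5.84 and 3.99 with SFN and 6.36, 6.53 and 5.84 with SFN+5-FU. Its spread within the SFN group was wide, since replicate 2 equalled the lowest library of the combined group, and GINS3 rose by 0.86 (adjusted p = 0.00267) and 1.35 (adjusted p = 0.000149). GINS2 and GINS4 rose by 0.59 and 0.46 with SFN and by 0.52 and 0.58 with SFN+5-FU. GINS1 was not called with SFN (log2 fold change 0.27, adjusted p = 0.0794) and rose by 0.62 with SFN+5-FU (adjusted p = 0.00138). All 4 GINS subunits thus rose in the combined group.

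Of the 3 firing factors, MCM10 changed most. MCM10, which binds the helicase and helps to activate it, was at 2.79, 2.57 and 4.03 FPKM in control, 6.38, 8.06 and 7.88 with SFN and 9.3, 9.51 and 7.78 with SFN+5-FU. No treated library overlapped the controls, and MCM10 rose by 1.04 (0.14 SE, adjusted p = 0.000402) and 1.27 (0.14 SE, adjusted p = 8.52e-05). CDC7, the catalytic subunit of the firing kinase, was at 2.69, 2.39 and 3.34 FPKM in control, 3.88, 3.16 and 4.98 with SFN and 3.68, 3.09 and 3.07 with SFN+5-FU. Its SFN and control libraries overlapped, the call with SFN (0.39, adjusted p = 0.0468) was lost under 11 of 18 alternatives, and with SFN+5-FU it was not called (0.17, adjusted p = 0.303). DBF4, the activating subunit of that kinase, was at 13.5, 10.6 and 13.6 FPKM in control, 12.9, 16.2 and 19.7 with SFN and 16.3, 16.4 and 14.5 with SFN+5-FU. It was called in neither comparison (log2 fold change 0.34, adjusted p = 0.0798, and 0.31, adjusted p = 0.0865), although all its SFN+5-FU libraries lay above control. DBF4 was called higher with SFN under library weights (adjusted p = 0.00211) and without SFN replicate 1 (adjusted p = 0.0120). With SFN+5-FU library weights (adjusted p = 0.0220) and the 6 libraries compared alone (adjusted p = 0.0176) made the call. So did leaving out SFN replicate 1 (adjusted p = 0.0374) or SFN replicate 3 (adjusted p = 0.0465). Annotated DBF4 pseudogenes in the table had means of at most 0.174 FPKM.

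Among the polymerases, the catalytic subunits of alpha and epsilon did not pass the test, while that of delta and most smaller subunits rose. Of the 10 genes 8 rose with SFN and 6 with SFN+5-FU, and none fell, with medians of 0.47 and 0.39. POLA1, the catalytic subunit of polymerase alpha, was at 3.16, 3.08 and 3.48 FPKM in control, 3.22, 3.38 and 3.63 with SFN and 3.32, 3.37 and 3.13 with SFN+5-FU. The 3 groups of POLA1 overlapped, with log2 fold changes of 0.06 (0.07 SE, adjusted p = 0.535) and 0.01 (0.07 SE, adjusted p = 0.892), and it was called under none of 18 alternatives in either comparison. POLA2, the second subunit of the same enzyme, was at 8.99, 7.59 and 9.86 FPKM in control, 13.2, 13.5 and 16.9 with SFN and 17, 16.8 and 14.3 with SFN+5-FU, and rose by 0.66 (adjusted p = 0.00186) and 0.80 (adjusted p = 0.000409). PRIM1 and PRIM2, the primase subunits, rose by 0.57 and 0.46 with SFN and by 0.67 and 0.52 with SFN+5-FU, although the calls of PRIM2 were lost after the correction for GC content and length (adjusted p = 0.0882 and 0.0914). Within the alpha and primase complex 3 of 4 genes thus rose.

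Polymerase epsilon is known for leading-strand synthesis. POLE, its catalytic subunit, was at 4.7, 4.55 and 5.07 FPKM in control, 4.61, 5.35 and 5.15 with SFN and 5.38, 5.18 and 5.44 with SFN+5-FU, and was not called (log2 fold change 0.06, adjusted p = 0.492, and 0.13, adjusted p = 0.131). Its SFN libraries overlapped control and its SFN+5-FU libraries lay above it. The correction for GC content and length made both calls (log2 fold change 0.28 and 0.43, adjusted p = 0.0253 and 0.00223). POLE3, a histone-fold accessory subunit, was at 26.8, 28.01 and 32.7 FPKM in control, 42.1, 72.6 and 52.2 with SFN and 75.95, 73.7 and 76.5 with SFN+5-FU. It rose by 0.88 (adjusted p = 0.00222) and 1.35 (adjusted p = 0.000141), and all of its treated libraries lay above all controls. POLE2, the second subunit, rose by 0.42 with SFN (adjusted p = 0.00936), a call lost after the correction for GC content and length (adjusted p = 0.0624), and with SFN+5-FU its log2 fold change was 0.19 (adjusted p = 0.144). Of polymerase delta, known for lagging-strand synthesis, the catalytic POLD1 rose by 0.30 (adjusted p = 0.00457) and 0.27 (adjusted p = 0.00581), the latter lost with quantile normalization (adjusted p = 0.199). POLD3, its subunit that binds PCNA, was at 3.56, 3.35 and 4.75 FPKM in control, 5.39, 8.7 and 6.2 with SFN and 8.67, 9.49 and 8.76 with SFN+5-FU, and rose by 0.66 (adjusted p = 0.00735) and 1.04 (adjusted p = 0.000408). POLD2 rose by 0.48 with SFN (adjusted p = 0.00476) and was not called with SFN+5-FU (0.21, adjusted p = 0.0971), where all its libraries nonetheless lay above control. It was called higher with SFN+5-FU without SFN replicate 2 (adjusted p = 0.0169). The 6 libraries compared alone (adjusted p = 0.0132) and library weights (adjusted p = 0.00276) also made that call.

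The clamp and 4 of the 5 loader subunits rose in both comparisons, with medians over the 6 genes of 0.53 and 0.82. PCNA, the ring that tethers the polymerases, was at 175, 178 and 214 FPKM in control, 214, 313 and 249 with SFN and 322, 328 and 333 with SFN+5-FU. SFN replicate 1 of PCNA lay just under control replicate 3. PCNA rose with SFN by 0.44 (0.13 SE, adjusted p = 0.0205), or 0.29 without SFN replicate 2 (adjusted p = 0.0259). This call was lost under 5 of 19 alternatives (highest adjusted p = 0.113), 2 of which left out control replicate 1 or control replicate 2. With SFN+5-FU PCNA rose by 0.80 (0.13 SE, adjusted p = 0.000670), with no overlap. RFC3, a small loader subunit, was at 14.02, 12.3 and 17.5 FPKM in control, 27.5, 32.9 and 37.2 with SFN and 34.8, 36.3 and 33.8 with SFN+5-FU. Every treated library of RFC3 lay above every control, SFN replicate 3 was the highest of all, and RFC3 rose by 1.11 (adjusted p = 0.000212) and 1.22 (adjusted p = 7.59e-05). RFC4, another small subunit, was at 13.5, 12.7 and 15.8 FPKM in control, 20.1, 29.9 and 24.9 with SFN and 30.2, 30 and 28.5 with SFN+5-FU, and rose by 0.78 (adjusted p = 0.00126) and 1.03 (adjusted p = 0.000168). RFC2 and RFC5 rose by 0.58 and 0.48 with SFN and by 0.69 and 0.84 with SFN+5-FU, and the value of RFC5 with SFN was 0.32 without SFN replicate 2 (adjusted p = 0.00458). Without control replicate 1 that call of RFC5 was lost (adjusted p = 0.0525). RFC1, the large subunit of the loader, was not called in either (log2 fold change 0.09, adjusted p = 0.535, and -0.09, adjusted p = 0.467). Under library weights RFC1 was called higher with SFN (0.22, adjusted p = 0.0404). In the main fit RFC1, like POLA1 and POLE, was thus not called where smaller subunits of its complex rose, whereas the catalytic POLD1 rose.

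Of the 5 genes of RPA and strand joining 3 rose and 1 fell in each comparison. RPA2, the middle subunit of RPA, was at 21.8, 22.7 and 27.6 FPKM in control, 29.9, 61.8 and 37.4 with SFN and 60.2, 60.2 and 62.7 with SFN+5-FU. It rose by 0.76 (0.22 SE, adjusted p = 0.0168), or 0.47 without SFN replicate 2 (adjusted p = 0.00605), and the call was lost without control replicate 1 (adjusted p = 0.0590) or control replicate 2 (adjusted p = 0.0541). With SFN+5-FU RPA2 rose by 1.32 (adjusted p = 0.000663). RPA1, the large subunit that holds the main DNA-binding domains, was at 27.2, 27.9 and 29.9 FPKM in control, 24.2, 29.01 and 26.2 with SFN and 31.1, 30.98 and 29.1 with SFN+5-FU. It was called in neither comparison (-0.10, adjusted p = 0.308, and 0.10, adjusted p = 0.277), while RPA1 fell with SFN once SFN replicate 2 was left out (-0.16, adjusted p = 0.0443). RPA3, the small subunit, rose by 0.23 with SFN (adjusted p = 0.0340), a call lost under 11 of 19 alternatives, and by 0.36 with SFN+5-FU (adjusted p = 0.00294). Of the 3 subunits of RPA, RPA2 and RPA3 thus rose in both comparisons and RPA1 passed the test in neither.

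FEN1 and LIG1, which act one after the other on Okazaki fragments, moved in opposite directions. FEN1, the nuclease that trims the flap, was at 44.3, 45.5 and 59 FPKM in control, 60.4, 84.5 and 67.2 with SFN and 84.1, 82.6 and 86.7 with SFN+5-FU. It rose by 0.50 with SFN (adjusted p = 0.0132), and leaving out control replicate 1 or 2 ended this call (adjusted p = 0.0546 and 0.0518). It rose by 0.77 with SFN+5-FU (adjusted p = 0.000980). LIG1, the ligase that seals the nick, was at 4.99, 4.72 and 5.73 FPKM in control, 3.8, 3.43 and 4.2 with SFN and 3.07, 3.13 and 3.11 with SFN+5-FU. All treated libraries of LIG1 lay below all controls. LIG1 was the 1 member that fell in each comparison, with log2 fold changes of -0.35 (0.09 SE, adjusted p = 0.00850) with SFN and -0.58 (0.09 SE, adjusted p = 0.000398) with SFN+5-FU. The SFN call was lost after the correction for GC content and length (log2 fold change -0.24, adjusted p = 0.0553).

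Of the 5 fork protection genes 4 rose in each comparison and none fell, with medians of 0.78 and 1.13. The group as listed also holds DTL, which acts on CDT1, and both medians are the values of DTL. CLSPN encodes claspin, the adaptor through which the kinase ATR activates CHEK1 at stalled forks. It was at 1.41, 1.31 and 2.06 FPKM in control, 2.66, 8.45 and 3.21 with SFN and 8.35, 9.88 and 7.45 with SFN+5-FU. SFN replicate 2 was inside the range of the combined group, the other SFN libraries were nearer to control, and none of the treated libraries overlapped the controls. CLSPN rose by 1.03 (0.31 SE, adjusted p = 0.0203), or 0.61 without SFN replicate 2 (adjusted p = 0.00602), and by 1.89 (0.31 SE, adjusted p = 0.000637) with SFN+5-FU. Its SFN call was lost without control replicate 1 (adjusted p = 0.0620) or control replicate 2 (adjusted p = 0.0662). TIPIN, which pairs with TIMELESS to couple helicase and polymerase, was at 2.19, 2 and 2.73 FPKM in control, 5.31, 7.78 and 6.78 with SFN and 8.21, 8.25 and 7.31 with SFN+5-FU, and rose by 1.20 (adjusted p = 0.000129) and 1.44 (adjusted p = 3.01e-05). TIMELESS itself was at 17.8, 18.4 and 21.03 FPKM in control, 16.5, 21.8 and 16.3 with SFN and 21.3, 21.98 and 21.7 with SFN+5-FU. SFN replicates 1 and 3 lay below all controls and SFN replicate 2 lay above them. TIMELESS was not called (log2 fold change -0.07, adjusted p = 0.597, and 0.18, adjusted p = 0.181), but without SFN replicate 2 it fell with SFN (-0.20, adjusted p = 0.0303) and rose with SFN+5-FU (0.18, adjusted p = 0.0260). All SFN+5-FU libraries of TIMELESS lay above control. Library weights (adjusted p = 0.00317) and the 6 libraries compared alone (adjusted p = 0.0322) also called it higher there. So did the correction for GC content and length (adjusted p = 0.0481). With SFN library weights called TIMELESS lower (-0.15, adjusted p = 0.0370). In the main fit TIPIN thus rose where its partner TIMELESS was not called.

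DTL, the receptor of the ubiquitin ligase that degrades CDT1 on PCNA, was at 4.56, 4.62 and 5.69 FPKM in control, 7.63, 11.8 and 8.62 with SFN and 12.4, 12.3 and 11.5 with SFN+5-FU. DTL rose by 0.78 (adjusted p = 0.00159) and 1.13 (adjusted p = 0.000132), with no overlap with control. WDHD1, which links the helicase to polymerase alpha, rose by 0.51 (adjusted p = 0.00395) and 0.46 (adjusted p = 0.00430). The chromatin assembly factor places histones behind the fork, and of its subunits CHAF1A was at 9.44, 9.12 and 11.99 FPKM in control, 13.1, 14.8 and 13.8 with SFN and 14.8, 14.5 and 14.3 with SFN+5-FU. CHAF1A rose by 0.42 (adjusted p = 0.00640) and 0.48 (adjusted p = 0.00196). CHAF1B was not called (-0.02, adjusted p = 0.790, and 0.05, adjusted p = 0.585).

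All 3 E2F genes rose in both comparisons. E2F1, an activator of S-phase genes, was at 25.5, 24.9 and 30.2 FPKM in control, 41.6, 46.9 and 42.7 with SFN and 42.7, 44.7 and 50.5 with SFN+5-FU. The treated groups overlapped each other above all controls, and E2F1 rose by 0.69 (0.09 SE, adjusted p = 0.000417) and 0.76 (0.09 SE, adjusted p = 0.000149). E2F8, an atypical member that represses E2F targets, was at 3.77, 3.17 and 4.48 FPKM in control, 5.4, 11.9 and 7.28 with SFN and 11.9, 11.8 and 12.01 with SFN+5-FU, with SFN replicate 2 inside the combined group. It rose by 0.88 (adjusted p = 0.00843) and 1.43 (adjusted p = 0.000420). E2F2, an activator at a low level, rose by 0.49 (adjusted p = 0.00363) and 0.42 (adjusted p = 0.00525).

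**Figure D4:**
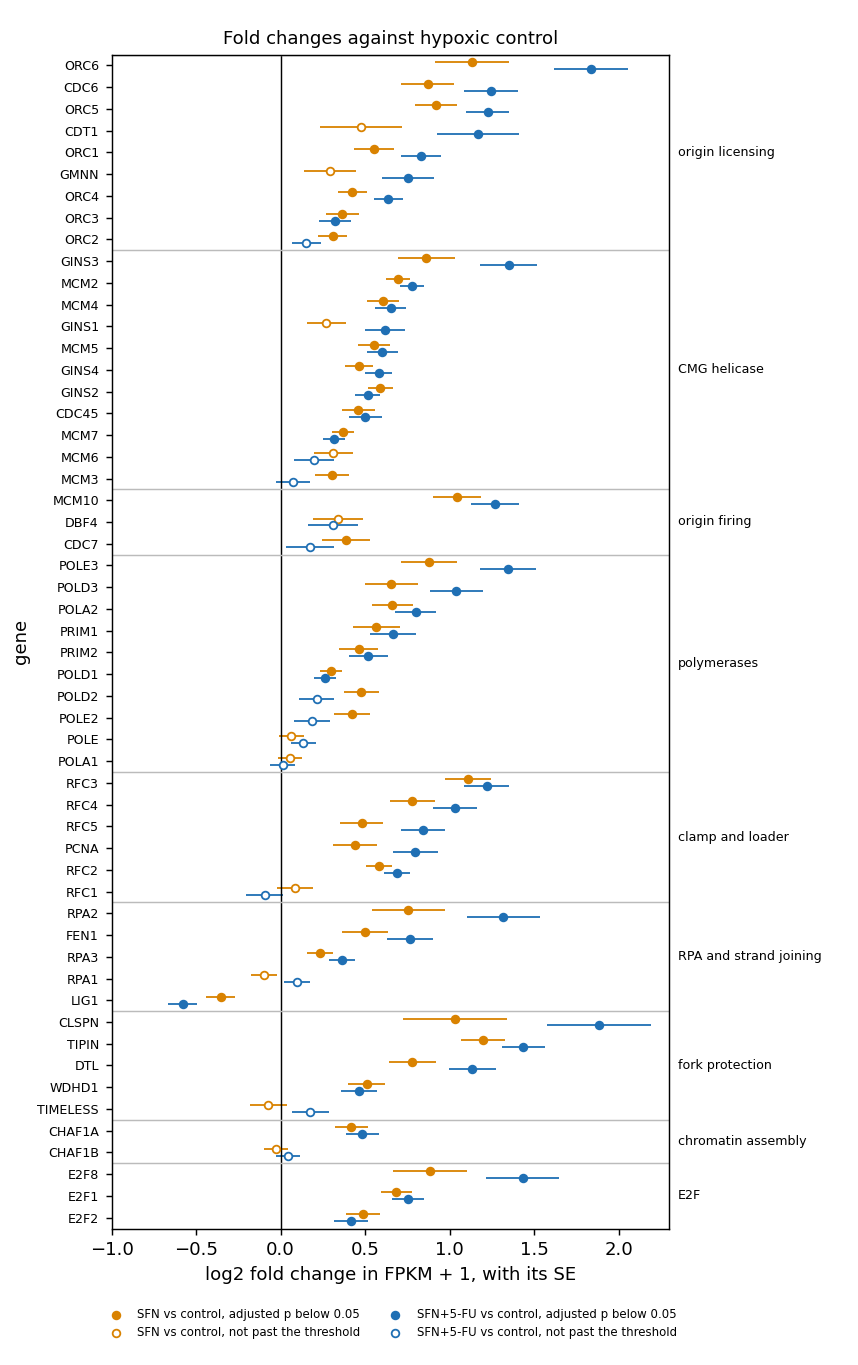
Log2 fold change in FPKM + 1 against hypoxic control, with its SE, for the 54 replication genes (rows, by role), with SFN in orange and SFN+5-FU in blue. Filled points passed an adjusted p of 0.05 in limma, and LIG1 is the 1 filled point below 0 in each comparison. Values with SFN+5-FU are further to the right than those with SFN for ORC6, CLSPN, RPA2 and POLE3, and close to them for MCM2, MCM4, MCM5 and MCM7.

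The third comparison asks what 5-fluorouracil added to sulforaphane, as far as the doses in the combination, which the labels do not give, allow. With all 9 libraries limma called none of the 54 members in SFN+5-FU against SFN, where 0.00790% of all genes (1 of 12662) were called. At an unadjusted p under 0.05 19 members were higher and 2 were lower, where 17.8% and 13.7% of all genes were, and the member median was 0.11, beside 0.03 for all genes. In 10 members the SFN+5-FU libraries lay above all SFN libraries and in 3 below, where 10.6% and 10.3% of all genes did so. Without the library labelled SFN replicate 2, 22 members were higher and 4 lower, where 29.8% of all genes were higher, 21.4% lower and 51.2% changed in either direction, and the member median was 0.13. The number of calls here thus rests on that 1 library, for the members as for all genes. Weighting the libraries by their fit to the groups gave 22 members higher and 8 lower. With those weights 4225 of all 12662 genes (33.4%) were higher and 3207 were lower.

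Against SFN replicates 1 and 3 the counts can be read by role. SFN replicate 2 was left out because it resembled the combined group, a choice made on the same values. Leaving out such a library tends to enlarge these differences and to lower their p-values. The calls below therefore hold only given that choice, with 2 SFN libraries left. Licensing genes were higher in 7 of 9 and lower in 1, with a median of 0.38, and fork protection genes were higher in 4 of 5, also with a median of 0.38. CDT1 was higher by 1.03 (adjusted p = 5.70e-05), CLSPN by 1.28 (adjusted p = 0.000165), ORC6 by 1.00 (adjusted p = 0.000209) and RPA2 by 0.85 (adjusted p = 0.000332). GMNN, PCNA and RFC5 were higher by 0.65, 0.51 and 0.52. With all libraries the same differences were 0.69 for CDT1, 0.85 for CLSPN, 0.71 for ORC6 and 0.56 for RPA2, with adjusted p = 0.134, 0.134, 0.134 and 0.137. Of the 11 helicase genes 2 were higher (GINS1 and GINS3) and 1 was lower, with a median of 0.05, beside 0.05 for all genes. MCM2 differed by 0.09 (adjusted p = 0.291), MCM4 by 0.05 (adjusted p = 0.713), CDC45 by 0.04 (adjusted p = 0.788) and RFC3 by 0.12 (adjusted p = 0.506), none of which was called. The 4 members lower than in SFN replicates 1 and 3 were POLD2 (-0.38, adjusted p = 0.00308), MCM3 (-0.32, adjusted p = 0.0102), LIG1 (-0.28, adjusted p = 0.0168) and ORC2 (-0.22, adjusted p = 0.0306). POLD2, the largest of these decreases, was at 22.1, 23.2 and 24.3 FPKM in control, 37.5, 27.8 and 33.5 with SFN and 29.2, 25.3 and 26.7 with SFN+5-FU. Its SFN replicates 1 and 3 were the highest libraries, and SFN replicate 2 lay within the combined group. Over all members SFN replicates 1 and 3 lay above every control in 42 of 54, where 36.8% of all genes did so. The combined group lay above both of them in 30 members (55.6%, beside 38.9% of all genes) and below both in 10 (18.5%, beside 28.5%). SFN replicate 2 lay within the range of the combined group in 31 members (57.4%), as in 56.5% of all genes.

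Related genes outside the 54 were grouped in lists. Of 25 tested further replication factors 17 rose with SFN and 19 with SFN+5-FU, and none fell, with medians of 0.38 and 0.56 beside 0.05 and 0.10 for all genes. The shares that rose were 68.0% and 76.0%, beside 27.5% and 38.3% of all genes. The 17 became 11 without control replicate 2. DSCC1, a subunit of the alternative clamp loader that serves sister chromatid cohesion, was at 4.83, 4.28 and 5.22 FPKM in control, 7.93, 15.3 and 9.54 with SFN and 15.2, 14.9 and 13.8 with SFN+5-FU, and rose by 1.00 (adjusted p = 0.00207) and 1.44 (adjusted p = 0.000176). CTPS1, the CTP synthase, which the list holds although it makes nucleotides, rose by 1.09 (adjusted p = 1.86e-05) and 1.04 (adjusted p = 1.29e-05). Of 14 genes of nucleotide supply 10 rose with SFN (71.4%) and 12 with SFN+5-FU (85.7%), and none fell, with medians of 0.31 and 0.47. NME1, a nucleoside diphosphate kinase, rose by 1.12 (adjusted p = 2.49e-05) and 1.09 (adjusted p = 1.69e-05). TYMS, thymidylate synthase, the enzyme that 5-fluorouracil blocks, was at 39.4, 38.9 and 45.7 FPKM in control, 53.99, 93.2 and 61.8 with SFN and 95.6, 101 and 95.2 with SFN+5-FU, and rose by 0.70 (adjusted p = 0.00764) and 1.22 (adjusted p = 0.000258). RRM2, the small subunit of ribonucleotide reductase, was at 32.1, 33.2 and 39.3 FPKM in control, 50.6, 91.9 and 60.9 with SFN and 94.5, 103 and 99.2 with SFN+5-FU, and rose by 0.90 (adjusted p = 0.00327) and 1.48 (adjusted p = 0.000142). Both had the pattern of ORC6 and RPA2, with SFN replicates 1 and 3 between control and the combined group. Of 19 S-phase checkpoint genes 12 rose with SFN (63.2%) and none fell. With SFN+5-FU 13 rose (68.4%) and 1 fell, and the medians were 0.47 and 0.57. HUS1, a subunit of the checkpoint clamp, rose by 0.69 with SFN (adjusted p = 0.0160), or 0.44 without SFN replicate 2 (adjusted p = 0.00865), and by 1.24 with SFN+5-FU (adjusted p = 0.000520). CDC25A, the phosphatase that activates CDK2, rose by 1.03 (adjusted p = 0.000353) and 1.38 (adjusted p = 4.82e-05).

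Among 16 other genes of the E2F and retinoblastoma families 6 rose and 2 fell with SFN, and 11 rose and 2 fell with SFN+5-FU, with medians of 0.21 and 0.41. With SFN 37.5% rose and 12.5% fell, beside 27.5% and 22.5% of all genes. With SFN+5-FU these shares were 68.8% and 12.5%, beside 38.3% and 28.0%. Without SFN replicate 2 4 rose with SFN (25.0%, beside 30.0% of all genes) and 13 with SFN+5-FU (81.2%, beside 43.4%). The 6 became 3 without control replicate 1, control replicate 2 or SFN replicate 3, and the 11 became 7 without control replicate 1 or SFN+5-FU replicate 3. MYBL2, a transcription factor and E2F target, rose by 0.43 (adjusted p = 0.0314), or 0.27 without SFN replicate 2 (adjusted p = 0.0523), and by 0.75 with SFN+5-FU (adjusted p = 0.00147). RBL2, which encodes the pocket protein p130, a partner of repressive E2F complexes in resting cells, was at 8.44, 8.35 and 7.61 FPKM in control, 5.34, 3.11 and 5.18 with SFN and 3.19, 3.28 and 2.95 with SFN+5-FU. It fell by 0.75 with SFN (adjusted p = 0.00312) and fell by 1.14 with SFN+5-FU (adjusted p = 0.000193). Among 17 cyclins, kinases and inhibitors of the G1/S step 5 rose and 5 fell with SFN, and 7 rose and 4 fell with SFN+5-FU, with medians of 0.17 and 0.03. The shares were 29.4% higher and 29.4% lower with SFN and 41.2% and 23.5% with SFN+5-FU, near the 27.5% and 22.5%, and 38.3% and 28.0%, of all genes. CCNE1, which with CCNE2 activates CDK2 at the start of S phase, rose by 0.65 (adjusted p = 0.00151) and 0.88 (adjusted p = 0.000172). CCNE2 rose by 0.89 with SFN (adjusted p = 0.0370), or 0.46 without SFN replicate 2 (adjusted p = 0.0148), and by 1.70 with SFN+5-FU (adjusted p = 0.00108). CDKN1C, the kinase inhibitor p57, fell by 1.66 with SFN (adjusted p = 0.000179) and fell by 2.18 with SFN+5-FU (adjusted p = 2.75e-05). CDKN1A, the inhibitor p21, fell by 0.45 with SFN (adjusted p = 0.0164), and with SFN+5-FU its log2 fold change was -0.07 (adjusted p = 0.654).

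Of the 28 genes of a mitosis list 7 rose (25.0%, beside 27.5% of all genes) and none fell with SFN. Without SFN replicate 2 18 rose (64.3%, beside 30.0%), and without control replicate 1 or 2 4 rose. With SFN+5-FU 5 rose (17.9%, beside 38.3%) and 7 fell (25.0%, beside 28.0%), and the 7 became 3 or 4 without any 1 control library or without SFN+5-FU replicate 1 or 2. Against SFN replicates 1 and 3 1 was higher and 18 were lower. The list's median was 0.21 with SFN, 0.34 with SFN without replicate 2, -0.03 with SFN+5-FU and -0.41 in SFN+5-FU against SFN replicates 1 and 3. UBE2C, a ubiquitin-conjugating enzyme of mitotic exit, rose by 0.70 with SFN (adjusted p = 0.0108), and with SFN+5-FU its log2 fold change was 0.21 (adjusted p = 0.334). KIF20A, a kinesin of cytokinesis, fell by 1.07 with SFN+5-FU (adjusted p = 0.00311). PLK1, a mitotic kinase, was at 23.9, 24.8 and 24.96 FPKM in control, 30.7, 12.2 and 34.5 with SFN and 12.3, 11.9 and 12.9 with SFN+5-FU. SFN replicate 2 was thus at the level of the combined group, below control, while SFN replicates 1 and 3 were above control. PLK1 fell by 0.94 with SFN+5-FU (adjusted p = 0.0218), and with SFN its log2 fold change was -0.06 (adjusted p = 0.885) with all libraries and 0.39 (adjusted p = 0.000754) without SFN replicate 2. MKI67, the proliferation marker Ki-67, was not called, at 22.0, 19.9 and 22.3 FPKM in control, 21.8, 21.4 and 26.9 with SFN and 20.9, 21.4 and 19.0 with SFN+5-FU. MCM2 and ORC6 thus stood above control in the 4 libraries where PLK1 stood below it.

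**Figure D5:**
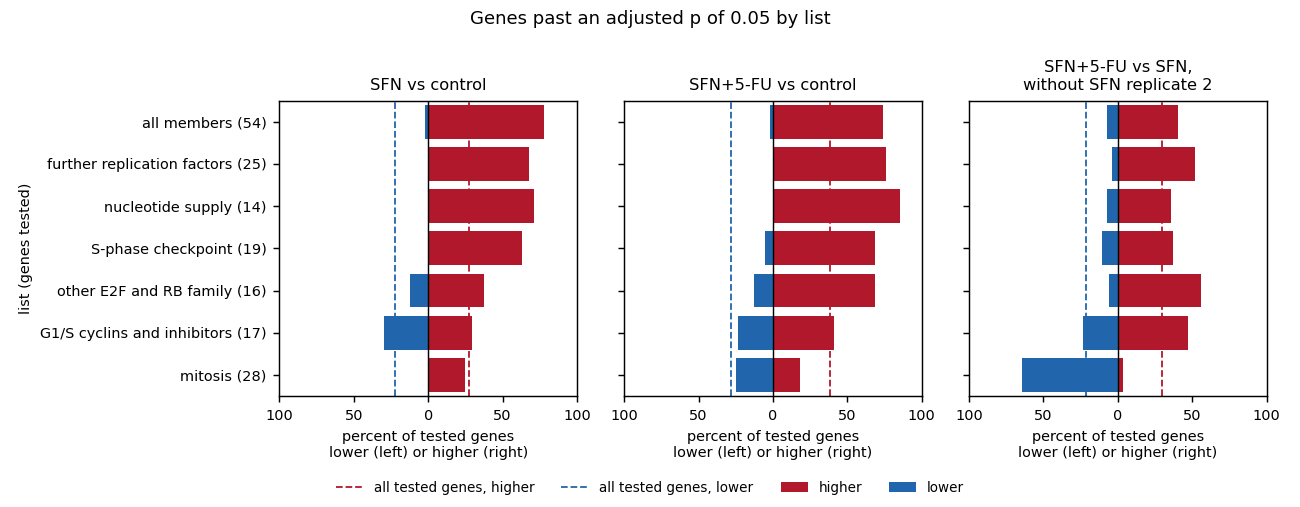
Percent of tested genes that were higher (red, to the right) or lower (blue, to the left) at an adjusted p of 0.05 for the 54 members and 6 related lists (rows, with the number of genes tested), in SFN against control, in SFN+5-FU against control and in SFN+5-FU against SFN without SFN replicate 2. Dashed lines mark the percentages over all 12662 tested genes (27.5 and 22.5, 38.3 and 28.0, and 29.8 and 21.4). The mitosis bar turns to the left in the third panel, with 64.3% lower.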

How the data were processed

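RNA of SW480 cells was sequenced in 9 libraries, 3 biological replicates in each of 3 groups, from poly(A) RNA as stranded paired-end libraries, per the labels' protocols. The deposited values are FPKM per gene to 2 decimals, and the submitters' processing notes name fastp, StringTie and edgeR. Not given in the sources used here were the aligner, genome build, annotation and strand setting. Depth is unknown (the smallest value above 0 is 0.01), so no counting interval is given. Ensembl gene IDs were matched to symbols through a name table (41002 of 41041).

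From these values log2(FPKM + 1) was computed here for the 12662 genes with a mean of at least 1 FPKM. It was fitted in limma 3.58.1 (R 4.3.3) with a mean-variance trend, with all 9 libraries sharing 1 estimate of the spread (6 residual and 3.2 prior degrees of freedom). P-values were adjusted by the Benjamini-Hochberg method over all genes tested, with a threshold of 0.05. The procedure was tested on simulated data first. Figures and motif searches used Python 3.11.15. Alternatives were other pseudocounts and filters, median-of-ratios scaling, quantile normalization, library weights, the 6 libraries compared alone, a correction for GC content and length, a replicate block and leaving out each library. The members, the related lists and the rules for naming genes (the largest changes in each role or list, and some fixed by name) were chosen with earlier results of these data known. Short stretches around E2F matches stand in for whole promoters.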

Additional observations from a re-analysis of the deposited data

How the results depend on the processing

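In SFN against control the members that fell numbered 0 with a mean FPKM of at least 5 and after the correction for GC content and length, 2 with quantile normalization and 2 with library weights, compared with 1, and between 1 and 3 when each library was left out in turn. Over all alternatives the members that rose with SFN numbered from 33 of 54 (without control replicate 1) to 48 of 54 (library weights). In these settings 20.5% and 38.3% of all tested genes rose. With SFN+5-FU the members that rose numbered from 34 of 44 tested (a mean FPKM of at least 5) to 49 of 54 (library weights). There 46% and 46.1% of all tested genes rose. In SFN+5-FU against control the members that fell numbered 0 with a mean FPKM of at least 5, a filter that removes LIG1. The median log2 fold change of the members there, 0.63, became 0.69 with a pseudocount of 0.1, 0.43 with a pseudocount of 5, 0.68 with a mean FPKM of at least 5, 0.53 with median-of-ratios scaling, 0.54 with quantile normalization and 0.59 after the correction for GC content and length, and ran from 0.58 to 0.71 when each library was left out. In SFN+5-FU against SFN library weights gave 22 members higher and 8 lower, and leaving out each library gave between 0 and 22 higher and between 0 and 4 lower, the highest without SFN replicate 2. For all 12662 genes the same settings gave 4225 higher (33.4%) and 3207 lower with library weights. Without SFN replicate 2 they gave 3774 higher (29.8%) and 2704 lower (21.4%). The member median of 0.11 became 0.0654 with median-of-ratios scaling, 0.0587 with quantile normalization and 0.085 with library weights, and ran from 0.0757 to 0.133 when each library was left out. Over the alternatives 30 of the 43 member calls with SFN and 37 of the 41 with SFN+5-FU held in every setting that tested the gene, and none of these calls changed direction. The cause of these differences was not tested. Same-numbered libraries did not deviate together (correlations from -0.143 to 0.107, 1 of 9 above 0.1), and a replicate block gave 43 members higher (MCM6 added, adjusted p = 0.0472) and 1 lower with SFN, 40 and 1 with SFN+5-FU, and 0 and 0 in SFN+5-FU against SFN. With that block 26% of all tested genes rose with SFN and 37.2% with SFN+5-FU. Alternatives for the related lists were chosen after seeing the data, and in the mitosis list they gave between 4 and 25 genes higher with SFN, and between 3 and 11 lower with SFN+5-FU. FPKM without fragment counts limits what can be said of weakly expressed members such as E2F2 and CLSPN.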
